A study of Mus musculus with 16 samples.

Results

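The 9 genes described here are read in tumor tissue as signs of macrophages and of what macrophages do. Csf1r, Adgre1 and Cd68 mark macrophage identity, C1qa, C1qb and C1qc encode the chains of complement component C1q, and Trem2, Apoe and Mertk serve lipid handling and the uptake of dying cells. They were taken by symbol from an expression table of 18929 genes. All 9 were in it, and each reached 0.5 FPKM (a fragment count scaled to transcript length and to library size) in 4 or more tumors, the limit for testing that 12850 genes met.

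The tumors grew from B16F10 cells, a melanoma line, in female C57BL/6 mice of 7 to 8 weeks, so every group shared one tumor line, one host strain and an intact immune system. From a tumor volume of about 50 mm3, mice were treated for 9 to 11 days with vehicle (corn oil plus an IgG isotype control), with an antibody against PD1 (anti-PD1, which blocks an inhibitory receptor of T cells), with 100 mg/kg α-ketoglutarate (α-KG, a metabolite of the citric acid cycle), or with both agents (the combination). Whole tumors were sequenced as poly(A)-selected RNA, with 4 tumors in each of the 4 groups and 16 in all. The question put to these genes was how far each treatment moved them, and whether they moved by the same amount.

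Macrophages depend on signals through the receptor encoded by Csf1r, which binds the growth factors CSF1 and IL-34. Adgre1 encodes the surface protein F4/80, used to identify mouse macrophages, and Cd68 encodes a glycoprotein of their lysosomes. C1q starts the classical complement pathway and is made largely by macrophages outside the liver, as an assembly of equal numbers of its A, B and C chains. TREM2 binds lipids and passes its signal through the adaptor TYROBP, APOE carries cholesterol and other lipids between cells, and MERTK is a kinase receptor that recognizes dying cells through the bridging proteins GAS6 and PROS1.

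The 3 C1q genes are neighbors on the minus strand of mouse chromosome 4, between Ephb2 and Epha8 (C1qb at chr4:136880126-136886200, C1qc at chr4:136889801-136892936 and C1qa at chr4:136895916-136898844, GRCm38.p6, the assembly also named mm10). The promoters of 5 members, each with 1 RefSeq window among those used here, are shown beside the levels described further on. There, C1qb, C1qc and Mertk rose from α-KG to the combination, and Cd68 and Trem2 rose with α-KG over vehicle. Each promoter is the RefSeq window from 250 bases before to 50 bases after the start of the gene, read 5′ to 3′ on its own strand. Capitals mark GAGGAA, the core letters bound by the myeloid factor PU.1, or the same letters on the opposite strand, TTCCTC.
C1qb, chr4:136886151-136886450, minus strand: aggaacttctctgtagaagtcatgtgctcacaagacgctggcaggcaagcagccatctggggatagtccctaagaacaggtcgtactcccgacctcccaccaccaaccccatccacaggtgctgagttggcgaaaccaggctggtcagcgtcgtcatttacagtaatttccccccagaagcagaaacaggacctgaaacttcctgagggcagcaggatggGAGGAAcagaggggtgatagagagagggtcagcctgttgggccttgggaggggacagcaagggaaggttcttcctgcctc
C1qc, chr4:136892865-136893164, minus strand: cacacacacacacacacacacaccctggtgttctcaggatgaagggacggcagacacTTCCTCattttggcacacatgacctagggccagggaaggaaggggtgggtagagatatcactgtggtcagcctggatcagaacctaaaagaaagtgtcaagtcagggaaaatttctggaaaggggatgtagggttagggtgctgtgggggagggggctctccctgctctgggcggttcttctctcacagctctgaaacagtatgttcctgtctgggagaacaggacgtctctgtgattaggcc
Cd68, chr11:69666121-69666420, minus strand: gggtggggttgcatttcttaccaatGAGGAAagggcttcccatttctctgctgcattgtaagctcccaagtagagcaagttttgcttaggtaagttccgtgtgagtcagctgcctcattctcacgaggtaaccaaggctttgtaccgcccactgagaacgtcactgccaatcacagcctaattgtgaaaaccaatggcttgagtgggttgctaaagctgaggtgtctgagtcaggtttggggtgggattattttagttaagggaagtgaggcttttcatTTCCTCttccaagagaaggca
Trem2, chr17:48346151-48346450, plus strand: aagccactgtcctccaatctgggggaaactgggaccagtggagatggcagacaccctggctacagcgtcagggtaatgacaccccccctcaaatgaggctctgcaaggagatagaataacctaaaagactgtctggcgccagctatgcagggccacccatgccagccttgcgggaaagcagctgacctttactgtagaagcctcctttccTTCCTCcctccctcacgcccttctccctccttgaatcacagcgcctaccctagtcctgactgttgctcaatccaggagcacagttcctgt
Mertk, chr2:128698665-128698964, plus strand: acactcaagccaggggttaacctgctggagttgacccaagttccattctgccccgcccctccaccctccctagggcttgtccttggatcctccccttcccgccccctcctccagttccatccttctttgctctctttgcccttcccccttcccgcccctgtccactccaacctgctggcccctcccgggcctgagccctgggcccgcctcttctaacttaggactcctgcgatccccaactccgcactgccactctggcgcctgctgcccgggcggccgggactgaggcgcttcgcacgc
Of 32851 mouse promoter windows of the same 300 bases, 28.3% held these letters on either strand. The C1qb window held 1 match, beginning 30 bases before the start, the C1qc window 1, the Cd68 window 2 and the Trem2 window 1. The Mertk window held 0, and of 3 Apoe windows 1 held 2 matches, 1 held 1 and 1 held 0. The letters TGCTGA, part of the motif of the MAF factors and present in 19.5% of all windows, was found once, in the C1qb window, without overlap with the PU.1 letters. The letters CACGTG (7.15% of all windows) and TTCNNNGAA (8.3%) were in 0 of the 8 windows. Such a match describes the letters of the window and does not show that a factor binds there.

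Several features of the tumors moved with the groups. Vehicle tumors 3 and 4 held the least of the pan-leukocyte gene Ptprc (0.65 and 0.88 FPKM, against 2.21 to 37.6 in the other tumors), and combination tumors 1 and 3 held the most (37.6 and 35.45 FPKM). The summed level of 10 neutrophil markers, none of them at 0 in every tumor, was 1092 to 2895 FPKM in the α-KG tumors and 25.0 to 115 FPKM in the other groups. The summed level of 8 T-cell markers was 25.4 to 202 FPKM with the combination, 7.86 to 39.45 with α-KG, 10.4 to 32.5 with anti-PD1 and 2.65 to 11.4 with vehicle, and again none was at 0 in every tumor. That of 6 muscle markers was 49.7 to 645 FPKM with vehicle, 4.15 to 62.3 with the combination and 2.51 to 4.16 in the tumors given 1 agent. The summed level of 9 melanocyte markers lay between 8123 and 11046 FPKM in all tumors, while hemoglobin genes took 2.09% to 2.23% of the FPKM sum in the combination tumors and 4.23% to 22.2% elsewhere. In whole-tumor RNA, fewer macrophages and less RNA per macrophage cannot be told apart, and the part of these marker levels in the results on the 9 genes was not tested.

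All 3 identity genes were lowest on average in the vehicle tumors. Csf1r stood at 11.1, 6.03, 1.74 and 2.01 FPKM in vehicle tumors 1 to 4, at 11.5, 15.8, 19.3 and 14.7 with anti-PD1, at 27.3, 24.5, 22.3 and 21.8 with α-KG and at 41.9, 21.1, 50.8 and 16.7 with the combination. Each treated tumor was above the highest vehicle tumor, the α-KG tumors were close together, and combination tumors 1 and 3 stood above the rest. Adgre1 stood at 7.81, 4.03, 1.10 and 1.20 FPKM in the vehicle tumors, 6.59, 10.1, 14.0 and 9.43 with anti-PD1, 19.4, 11.8, 11.1 and 10.6 with α-KG and 24.2, 12.6, 25.0 and 12.5 with the combination. Cd68, present at higher FPKM than either, stood at 103, 60.1, 30.7 and 31.8 FPKM in the vehicle tumors, 112, 143, 181 and 169.5 with anti-PD1, 207, 185, 152 and 164 with α-KG and 252, 145, 296 and 121 with the combination. Both followed the order of Csf1r within the vehicle and combination groups, with vehicle tumors 3 and 4 lowest and combination tumors 1 and 3 highest.

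**Figure D1:**
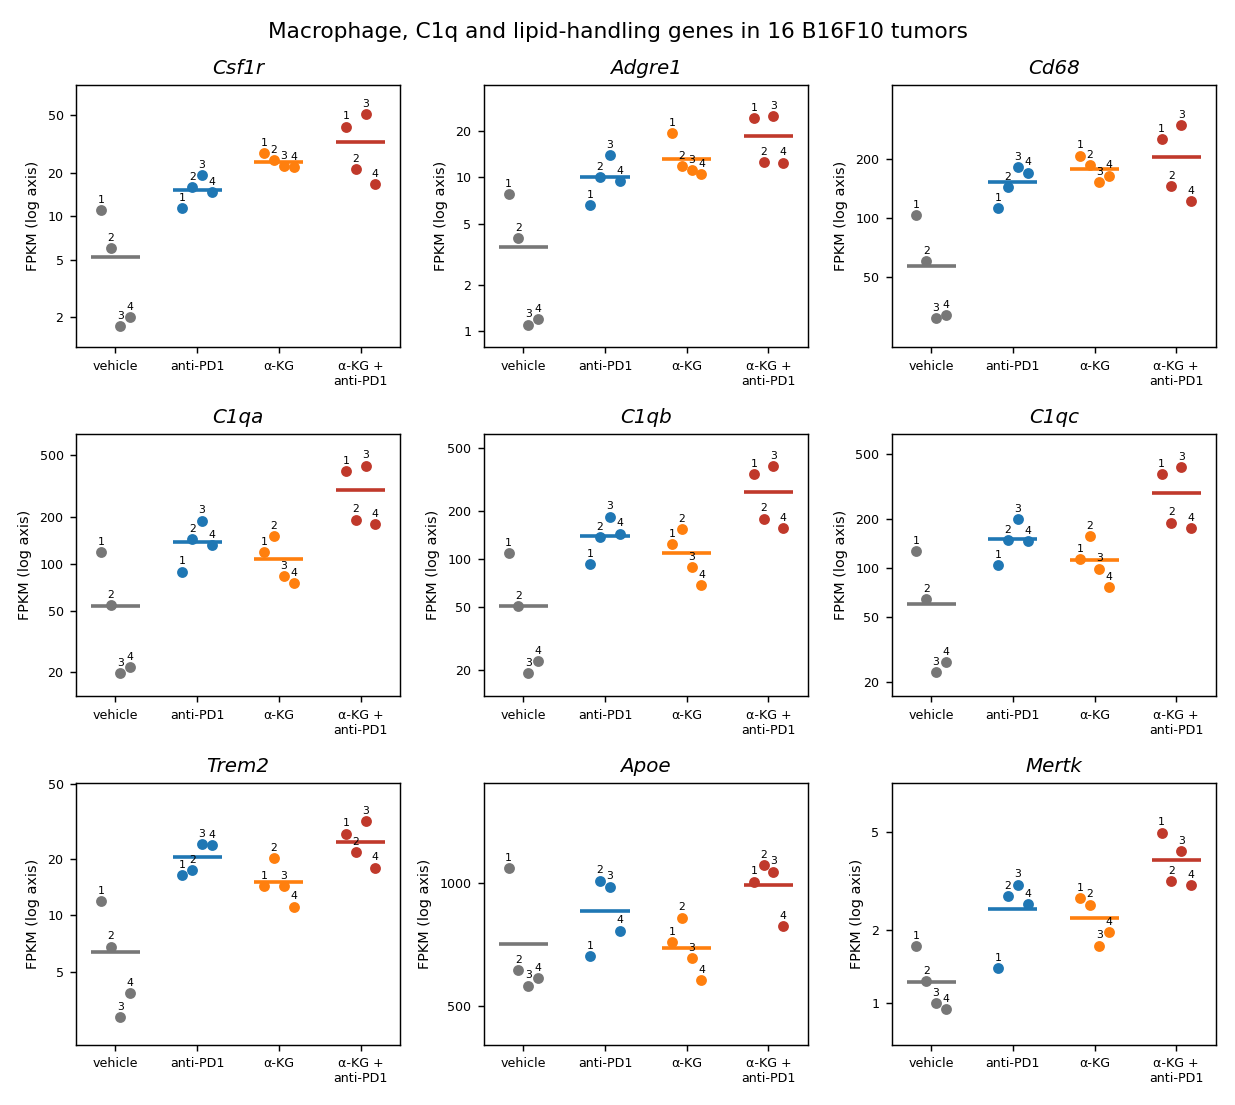
FPKM of the 9 genes in each of the 16 tumors (log axes), with tumor numbers beside the points and lines at the group means (4 tumors per group). Vehicle tumors 3 and 4 lie lowest and combination tumors 1 and 3 highest for 8 of the 9 genes, and Apoe is the exception.

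The C1q genes were present at FPKM near that of Cd68 and were highest with the combination. C1qa stood at 119, 54.5, 19.8 and 21.7 FPKM in the vehicle tumors, 89.1, 144, 189 and 132 with anti-PD1, 119, 151, 83.7 and 75.2 with α-KG and 396, 192, 429 and 179 with the combination. The 4 combination tumors lay above all 4 α-KG tumors, and the α-KG and vehicle tumors overlapped. C1qb stood at 109, 50.8, 19.2 and 22.8 FPKM in the vehicle tumors, 93.3, 138, 186 and 145 with anti-PD1, 124, 154, 88.8 and 68.7 with α-KG and 343, 180.4, 387 and 156 with the combination. C1qc stood at 127, 64.0, 22.9 and 26.4 FPKM in the vehicle tumors, 104, 149, 201 and 147 with anti-PD1, 114, 157, 99.2 and 76.5 with α-KG and 379, 190.0, 418 and 177 with the combination. The chains kept nearly the same proportion to each other in all 16 tumors, whatever their level. Per transcript length, C1qb was 0.867 to 1.10 times C1qa and C1qc was 0.955 to 1.21 times C1qa, although C1qa itself ranged from 19.8 to 429 FPKM.

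Among the lipid and clearance genes, Trem2 moved most, Mertk less and Apoe least. Trem2 stood at 11.9, 6.81, 2.86 and 3.86 FPKM in the vehicle tumors, 16.4, 17.3, 23.9 and 23.7 with anti-PD1, 14.3, 20.2, 14.3 and 11.1 with α-KG and 27.2, 21.8, 31.8 and 17.9 with the combination. All anti-PD1 tumors lay above the highest vehicle tumor, whereas 1 α-KG tumor lay below it. Mertk, the least abundant of the 9, stood at 1.71, 1.23, 1.00 and 0.950 FPKM in the vehicle tumors, 1.39, 2.73, 3.05 and 2.54 with anti-PD1, 2.69, 2.53, 1.72 and 1.96 with α-KG and 4.97, 3.15, 4.17 and 3.04 with the combination. Apoe was by far the most abundant, at 1089, 611, 560.2 and 583 FPKM in the vehicle tumors, 663, 1017, 982 and 765 with anti-PD1, 716, 824, 655 and 577 with α-KG and 1010.3, 1108, 1070.0 and 786 with the combination. Its groups overlapped in every comparison. Vehicle tumor 1 was as high as the combination tumors, and the other 3 vehicle tumors were below all of them.

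The combination raised all 9 genes over vehicle. Changes were tested with limma on log2(FPKM + 1), with p-values adjusted over the 12850 genes by the Benjamini-Hochberg method, and a gene is said to have risen when its adjusted p was below 0.05. By this test 34.9% of all genes were higher with the combination than with vehicle, so a rise was common, and the median gene was shifted by 0.15 on the log2 scale. The identity genes rose by 2.57 ± 0.41 (log2 fold change ± SE, n = 4 per group) for Csf1r, 2.30 ± 0.40 for Adgre1 and 1.91 ± 0.34 for Cd68. The C1q genes rose by 2.72 ± 0.47 for C1qa, 2.61 ± 0.45 for C1qb and 2.49 ± 0.45 for C1qc, with adjusted p from 0.000632 to 0.00073. In mean FPKM, C1qa was 5.56-fold and Csf1r 6.26-fold the vehicle level. Trem2 rose by 1.93 ± 0.30, Mertk by 1.11 ± 0.18 and Apoe by 0.53 ± 0.20, the last with an adjusted p of 0.0426. For 8 of the 9 genes the combination and vehicle tumors did not overlap, against 28.2% of all genes for which every combination tumor was higher. Vehicle tumors 3 and 4 set part of the size: without both, Csf1r differed by 1.73 and C1qa by 1.77, and 8 genes still rose, Apoe being the exception. Apoe also missed the threshold when vehicle tumor 2, 3 or 4, combination tumor 1, 2 or 3, anti-PD1 tumor 4, or α-KG tumor 1 or 3, was left out, and after centering on tumor medians (0.22), with no filter or when only those 2 groups were fitted.

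α-KG alone raised the identity genes and Trem2 but not, by this test, the C1q genes. Over vehicle, 4 of the 9 genes rose, and 8.4% of all genes did. Csf1r rose by 2.27 ± 0.41 (adjusted p = 0.00133), Adgre1 by 1.87 ± 0.40 (0.00446), Cd68 by 1.80 ± 0.34 (0.00203) and Trem2 by 1.25 ± 0.30 (0.0101). The differences of C1qa, C1qb and C1qc were 1.30 ± 0.47, 1.37 ± 0.45 and 1.17 ± 0.45, with adjusted p of 0.072, 0.0523 and 0.0865, and that of Mertk was 0.54 ± 0.18 (0.0509). These 4 lay close to the threshold, so they are not shown to be unaffected by α-KG. Apoe differed by 0.01 ± 0.20, with a 95% interval from -0.42 to 0.44. Without vehicle tumor 1, the highest of its group, 8 genes rose, and without vehicle tumors 3 and 4 only Csf1r did, by 1.43 (adjusted p = 0.0354).

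With anti-PD1 alone, 2 genes passed the test. Cd68 rose by 1.57 ± 0.34 (adjusted p = 0.0473) and Trem2, the lipid receptor, by 1.68 ± 0.30 (0.0322), and these 2 of 9 stood against 0.467% of all genes that were higher. Every other member was positive too, from 0.30 for Apoe to 1.76 for C1qb, with adjusted p from 0.0654 to 0.463. The count rested on single tumors: it was 8 without vehicle tumor 1, 1 without vehicle tumor 2, and 0 without vehicle tumor 3 or 4 or without anti-PD1 tumor 2, 3 or 4. It was also 0 without vehicle tumors 3 and 4 together, and 5 without combination tumors 1 and 3, which enter through the shared estimate of the spread. Leaving out an α-KG tumor or combination tumor 2 lowered it to 0 or 1 in the same way.

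**Figure D2:**
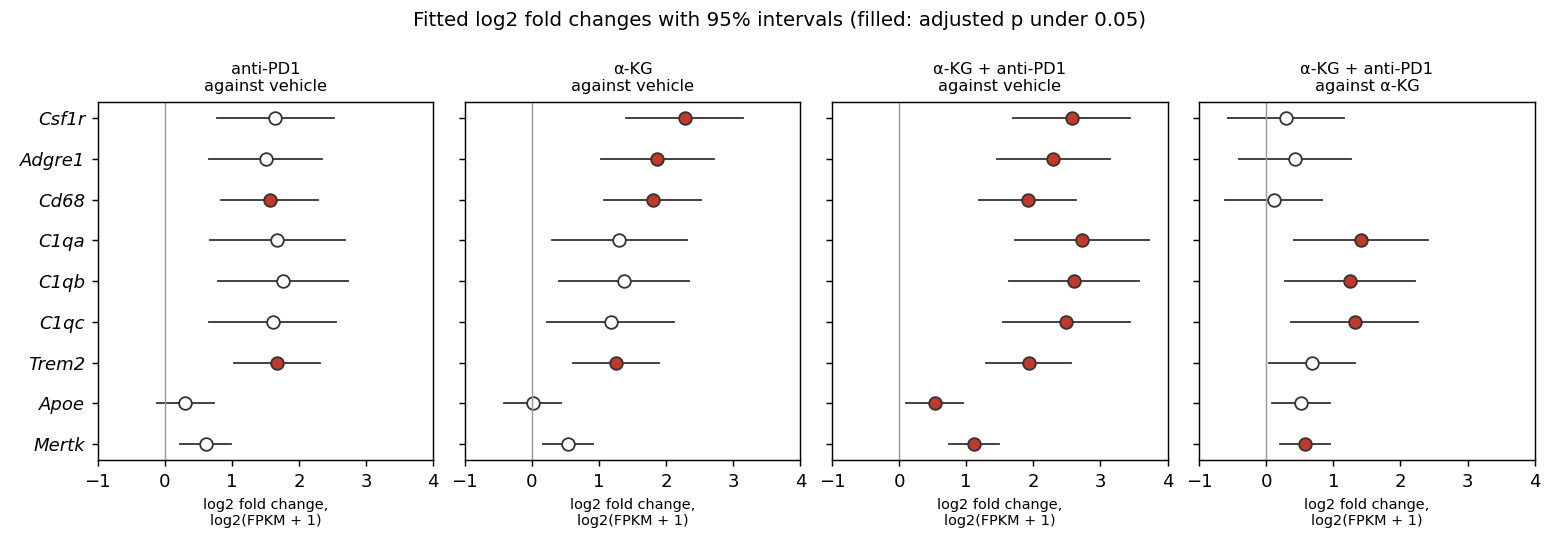
Log2 fold changes of the 9 genes on the log2(FPKM + 1) scale in 4 comparisons, with 95% intervals from limma (4 tumors per group, filled points at adjusted p under 0.05). All 9 points are filled for the combination against vehicle, 4 for α-KG against vehicle, 2 for anti-PD1 against vehicle, and 4 for the combination against α-KG, where Csf1r (0.30), Adgre1 (0.43) and Cd68 (0.11) are open.

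Adding anti-PD1 to α-KG raised the C1q genes and Mertk without a detected rise of the identity genes. C1qa rose by 1.42 ± 0.47 (adjusted p = 0.0273), C1qb by 1.24 ± 0.45 (0.0418), C1qc by 1.32 ± 0.45 (0.0295) and Mertk by 0.58 ± 0.18 (0.0192). In mean FPKM the C1q genes were 2.45-fold to 2.79-fold the α-KG level. Csf1r, Adgre1 and Cd68 differed by 0.30 ± 0.41, 0.43 ± 0.40 and 0.11 ± 0.34, with 95% intervals from -0.57 to 1.16, -0.41 to 1.27 and -0.61 to 0.84. Trem2 (0.68 ± 0.30, adjusted p = 0.0846) and Apoe (0.52 ± 0.20, 0.0522) missed the threshold. The 4 of 9 that rose compare with 31.8% of all genes, a share near that of the members, so the count is not a result about these genes. The call was fragile: 0 of 9 passed without α-KG tumor 3, without combination tumor 1 or without combination tumor 3, and C1qa alone passed, at 1.14, after centering each tumor on its median. The count was 1 without α-KG tumor 4 and 2 without α-KG tumor 1. Without combination tumors 1 and 3 it was 0, C1qa, C1qb and C1qc then differed by 0.84, 0.69 and 0.76, Csf1r by -0.33 and Cd68 by -0.41. Between the same groups all 8 T-cell markers rose (median 1.94) and all 8 neutrophil markers tested fell (median -2.53).

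Between the combination and anti-PD1 alone, 0 of the 9 genes passed limma's test at an adjusted p of 0.05, 3 did at an unadjusted p under 0.05, and 14.2% of all genes were higher. The differences were all positive, from 0.22 ± 0.20 for Apoe to 1.04 ± 0.47 for C1qa. Mertk came closest (0.50 ± 0.18, adjusted p = 0.063) and passed without combination tumor 4. Between α-KG and anti-PD1 alone, 0 of 9 passed by limma and 0 did at an unadjusted p under 0.05, against 2.8% of all genes that were higher. Csf1r was higher in every α-KG tumor than in every anti-PD1 tumor (0.63 ± 0.41), while the C1q genes, Trem2 and Apoe were lower on average, by -0.30 to -0.43 on the log2 scale.

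The test of whether the effect of anti-PD1 depended on α-KG (the interaction) passed for 0 of the 9 genes by limma, 3 at an unadjusted p under 0.05, against 11.1% of all genes in either direction. Those 3 were Cd68 (-1.45 ± 0.48, adjusted p = 0.0615), Csf1r (-1.35 ± 0.58, 0.132) and Trem2 (-0.995 ± 0.42, 0.13). All 3 passed without vehicle tumor 1, and Cd68 also without combination tumor 3. For the C1q genes the estimate ran from -0.51 to -0.26 with intervals that spanned 0.

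The members did not move in one proportion, and the C1q genes were low for the amount of Csf1r in the α-KG tumors. Such low ratios were common: without overlap, 88.9% of all genes had them against vehicle and 67.4% against anti-PD1. In the same tumor, the FPKM of C1qa divided by that of Csf1r was 10.8, 9.04, 11.4 and 10.8 with vehicle, 7.78, 9.11, 9.80 and 8.97 with anti-PD1, 4.36, 6.15, 3.76 and 3.44 with α-KG and 9.46, 9.10, 8.44 and 10.8 with the combination. The 4 α-KG tumors were below the other 12, while vehicle tumors 3 and 4, low in both genes, and combination tumors 1 and 3, high in both, had ratios like the rest of their groups. For C1qb the ratio was 3.15 to 6.30 with α-KG, 8.15 to 9.86 with anti-PD1 and 7.61 to 9.38 with the combination, and for C1qc it was 3.50 to 6.41, 9.06 to 10.4 and 8.23 to 10.6. Within the α-KG group the ratios of C1qa and C1qb ran in the reverse order of the neutrophil marker sums. They went from tumor 2 (1092 FPKM of neutrophil markers, highest ratios) to tumor 4 (2895 FPKM, lowest ratios). The ratios of C1qc did not keep this order between tumors 1 (4.17) and 3 (4.46). The order was not particular to neutrophil markers. The T-cell marker sums fell with the C1qa and C1qb ratios, at 39.45, 10.75, 8.83 and 7.86 FPKM in tumors 2, 1, 3 and 4. With 4 tumors, an order cannot be tested.

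**Figure D3:**
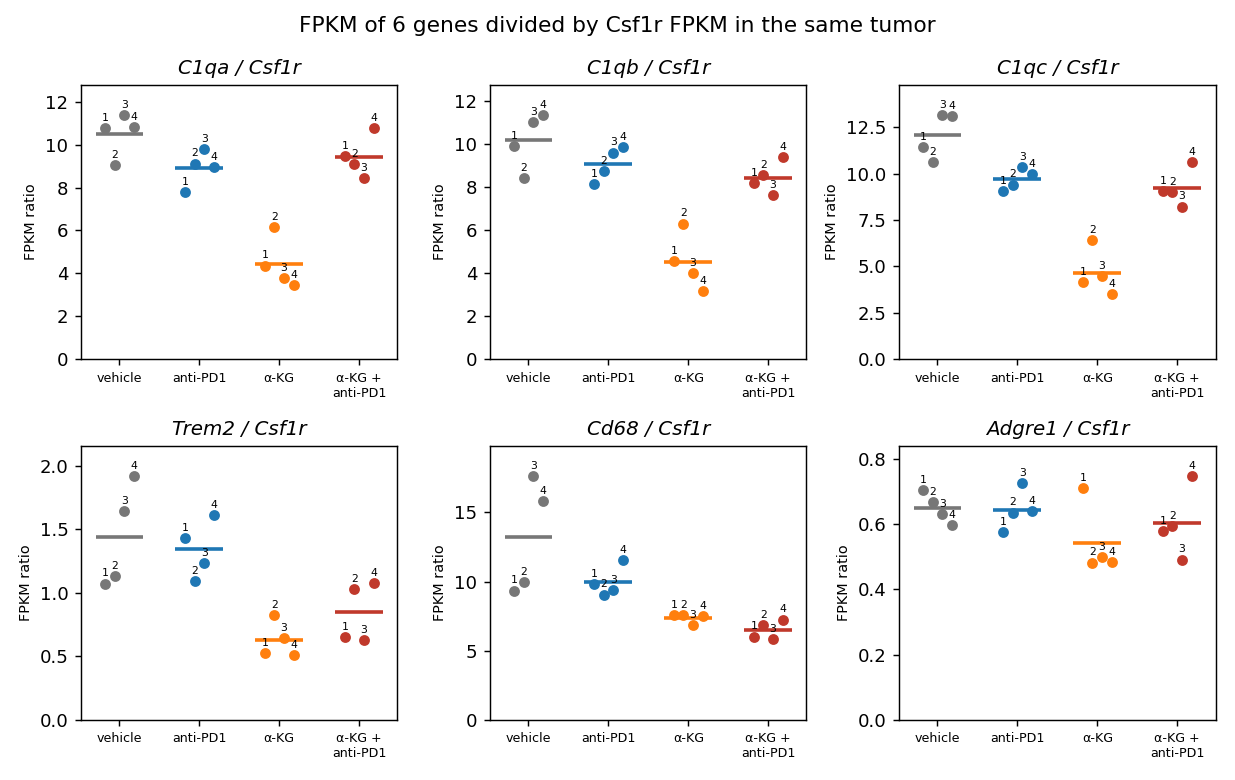
FPKM of 6 genes divided by the FPKM of Csf1r in the same tumor, by group (tumor numbers beside the points, lines at the means of 4 tumors, linear axes from 0). The ratios of C1qa, C1qb and C1qc are lower in all 4 α-KG tumors than in the 12 others, Adgre1 overlaps between all groups, and Cd68 is lower in both groups given α-KG than in vehicle and anti-PD1 tumors.

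The C1qa ratio with α-KG was 0.486-fold that with anti-PD1. From α-KG to the combination the ratio changed 2.18-fold for C1qa, 1.93-fold for C1qb and 2.03-fold for C1qc. Exact permutation over the tumors, two-sided, gave p = 0.0286 for each of these, the smallest p that 4 against 4 tumors allow. This test was added after the data were seen, 198 such comparisons were computed over 4 reference genes, and none of the p-values is adjusted. Since Csf1r was higher with α-KG than with anti-PD1, 67.4% of all genes had ratios below the anti-PD1 tumors with no overlap, so the first difference is common. Trem2, Apoe, Mertk and Cd68 also had lower ratios in every α-KG tumor than in every vehicle or anti-PD1 tumor. With Cd68 in place of Csf1r, no C1q gene lay below vehicle without overlap, where 83.4% of all genes did. C1qc alone of the 3 lay below anti-PD1, beside 12% of all genes. Against α-KG, 4.86% of all genes had higher ratios in every combination tumor, and all 3 C1q genes but none of the other 5 members did. With Cd68 in place of Csf1r the 3 C1q genes were again higher without overlap, beside 9.25% of all genes, and so was Mertk. The 3 were also higher with Ptprc, for which the share of all genes is not given here. With Adgre1, beside 2.99% of all genes, C1qa and C1qc were higher, while C1qb overlapped (exact permutation p = 0.0571).

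The planned test of the same question, limma over all genes after subtracting the log2 level of Csf1r in each tumor, called 0 of 8 members for the combination against α-KG (C1qa 1.12 ± 0.50, adjusted p = 0.499), against 2.37% of all genes, and 0 of 8 for α-KG against anti-PD1 (C1qa -1.003 ± 0.50, 0.271), against 0.864%. At an unadjusted p under 0.05, C1qa and C1qc passed in the first and all 3 C1q genes and Trem2 in the second. When only the groups compared were fitted, the first count was still 0 and the second was 7 of 8, all lower, beside 89.1% of all genes. For α-KG against vehicle it called 4 of 8 members lower relative to Csf1r, C1qc by -1.10, Trem2 by -1.02, Apoe by -2.26 and Mertk by -1.74, while 96.8% of all genes were lower. In this fit the SE between 2 groups was 0.46 to 0.51 for every member, because limma drew each gene to a spread shared by all genes. Subtraction puts the spread of Csf1r into every gene, so this SE need not measure that of a gene that tracked Csf1r. The 0 of 8 therefore does not decide whether the C1q genes moved apart from Csf1r. That difference was seen in the ratios as groups without overlap, and the planned test did not call it. With 4 tumors against 4, a lack of overlap always gives the smallest exact p. The unadjusted p-values of the ratios therefore add no support beyond the lack of overlap.

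Other members kept other proportions to Csf1r. Adgre1 was 0.482 to 0.748 times Csf1r over all 16 tumors, with no difference between any groups beyond their spread (exact p of 0.114 or more). Cd68 fell relative to Csf1r from 9.34 to 17.6 in the vehicle tumors to 6.83 to 7.58 with α-KG and 5.83 to 7.25 with the combination, without overlap (exact p = 0.0286). So did 88.9% of all genes with α-KG and 82.3% with the combination, so this fall is common. Trem2 relative to Csf1r was 1.09 to 1.61 with anti-PD1, 0.509 to 0.827 with α-KG and 0.625 to 1.08 with the combination, so both α-KG groups lay below anti-PD1 (exact p = 0.0286 for each). Of all genes, 67.4% lay below anti-PD1 without overlap with α-KG and 8.76% with the combination. With the combination, the Trem2 ratio overlapped that of α-KG (exact p = 0.2).

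Across the 16 tumors the identity genes tracked each other closely and Apoe tracked them least. These correlations describe 16 tumors that share groups, treatments and scaling, and carry no test. Pearson's r of log2(FPKM + 1) was 0.985 between Csf1r and Adgre1, 0.984 between Csf1r and Cd68, 0.91 between Csf1r and C1qa, and 0.598 between Csf1r and Apoe. Among all other genes tested, the 3 most like Csf1r were Nckap1l, Tmsb4x and Irf5 (r from 0.992 to 0.997), and the 3 most like C1qa were Clec12a, Ctss and Pld4 (0.987 to 0.991). Trem2 was matched best by Rab7b, Anpep and Tlr8 (0.953 to 0.966), Mertk by Slamf7, Apobec1 and Tmem106a (0.97 to 0.978) and Apoe by Gpr160, Hsd17b1 and C2 (0.94 to 0.955). After removal of the group means, Nckap1l stayed first for Csf1r and Clec12a for C1qa, whereas Apoe was matched best by Klhdc8b and Trem2 by Serf2.

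Most other macrophage genes of a 20-gene list also rose with α-KG and with the combination. Of 18 tested, 5 rose with anti-PD1, 13 with α-KG and 18 with the combination over vehicle, with medians of 1.50, 1.72 and 1.93. Over all genes, 0.467%, 8.4% and 34.9% rose in these comparisons, with medians of 0.03, -0.04 and 0.15. Cathepsin S (Ctss), the lysosomal protease most like C1qa, rose by 3.25 with the combination and by 1.45 between α-KG and the combination (adjusted p = 0.041). Cd14 and Tlr2, receptors for bacterial products that neutrophils also carry, went the other way between those 2 groups, by -4.14 and -1.34 (adjusted p = 2.98e-05 and 0.00439). Relative to Csf1r, 5 of these 18 genes were higher and 4 lower in every combination tumor than in every α-KG tumor. Of all genes, 4.86% were higher and 2.47% lower in this way. Csf1, the ligand of CSF1R, averaged 2.19 FPKM with vehicle, 5.24 with anti-PD1, 13.7 with α-KG and 8.68 with the combination, and rose over vehicle with α-KG (2.19, adjusted p = 6.56e-05) and the combination (1.64, 0.000634). Il34, its other ligand, was below 0.5 FPKM on average in every group and was not tested. Of 5 genes tested on a list of colony-stimulating factors and receptors, 5 rose with α-KG (8.4% of all genes) and 4 with the combination (34.9%), with medians of 3.16 and 1.64, Csf3r, a neutrophil gene, by 3.98 with α-KG.

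Of the partners of C1q, C1ra, C1s1, C4b and Serping1 were higher with the combination than with α-KG. Of 19 complement genes tested besides C1q, 3 rose with anti-PD1, 8 with α-KG and 13 with the combination over vehicle, with medians of 0.59, 0.51 and 1.22, beside 0.467%, 8.4% and 34.9% of all genes. Between α-KG and the combination 6 of the 19 rose and 1 fell, a share near the 31.8% of all genes that rose, so that count is not a result about complement. C1ra and C1s1, which encode the proteases that C1q carries, did not pass with α-KG (0.03 and -0.68, adjusted p = 0.967 and 0.0748), rose with the combination (1.22 and 0.71, adjusted p = 0.00477 and 0.0285), and rose between α-KG and the combination (1.19 and 1.39, adjusted p = 0.00684 and 0.00107). C4b, the next component, rose by 1.24 between those groups (0.0196) and Serping1, the inhibitor of both proteases, by 1.24 (0.0329). C3, on which all complement pathways converge, averaged 1.29 FPKM with vehicle, 16.5 with α-KG and 10.1 with the combination, and its difference between the last 2 groups was -0.84 (adjusted p = 0.0682). Cfb of the alternative pathway rose by 2.57 and Itgb2, a chain of complement receptors, by 3.00 with the combination over vehicle.

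TREM2 shares its adaptor with other myeloid receptors, and the genes of that group rose with α-KG. All 10 on the list rose with α-KG over vehicle, 9 rose with the combination and 2 with anti-PD1, with medians of 2.25, 1.58 and 0.81, beside 8.4%, 34.9% and 0.467% of all genes. Tyrobp, the adaptor, rose by 2.98 with α-KG and 2.59 with the combination, and Syk, the kinase it recruits, by 2.18 and 1.73. Trem1, a receptor of neutrophils and monocytes that uses the same adaptor, rose by 3.90 with α-KG and fell by 3.52 between α-KG and the combination (adjusted p = 4.13e-06). Trem2 itself differed by 0.68 in the opposite direction, without passing the test.

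Of 25 lipid genes tested, 4 rose with anti-PD1, 10 rose and 1 fell with α-KG, and 19 rose and 1 fell with the combination. The medians were 0.55, 0.51 and 0.91, and 0.467%, 8.4% and 34.9% of all genes rose. Nr1h3, which encodes the sterol-sensing receptor LXRα, rose by 1.47 with α-KG and 2.03 with the combination. Its targets Abca1 and Abcg1, the exporters that load cholesterol onto APOE, rose by 1.38 and 1.07 with α-KG and by 1.34 and 1.74 with the combination. Lpl, the lipase of triglyceride-rich particles, rose by 1.91 with the combination and differed by 0.71 with α-KG (adjusted p = 0.16). Lrp1, a receptor for APOE, rose by 0.98 with α-KG and 1.46 with the combination. Spp1 rose by 2.53 with α-KG and fell by 1.54 between α-KG and the combination.

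MERTK has relatives and ligands of its own among 13 genes tested for the uptake of dying cells, of which 0 passed limma's test with anti-PD1 (5 at an unadjusted p under 0.05), 6 rose with α-KG, and 8 rose and 1 fell with the combination. The medians were 0.51, 0.32 and 0.97, and 0.467%, 8.4% and 34.9% of all genes rose. Axl, a receptor of the same family, averaged 8.88 FPKM with vehicle, 5.89 with α-KG and 36.9 with the combination, and rose by 2.30 between the last 2 groups (adjusted p = 0.00399). Gas6, the ligand both receptors share, rose by 1.07 with α-KG and differed by 0.43 with the combination, and Pros1 rose by 0.42 with the combination. Rac2, a leukocyte GTPase, rose by 2.98 and 2.90.

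**Figure D4:**
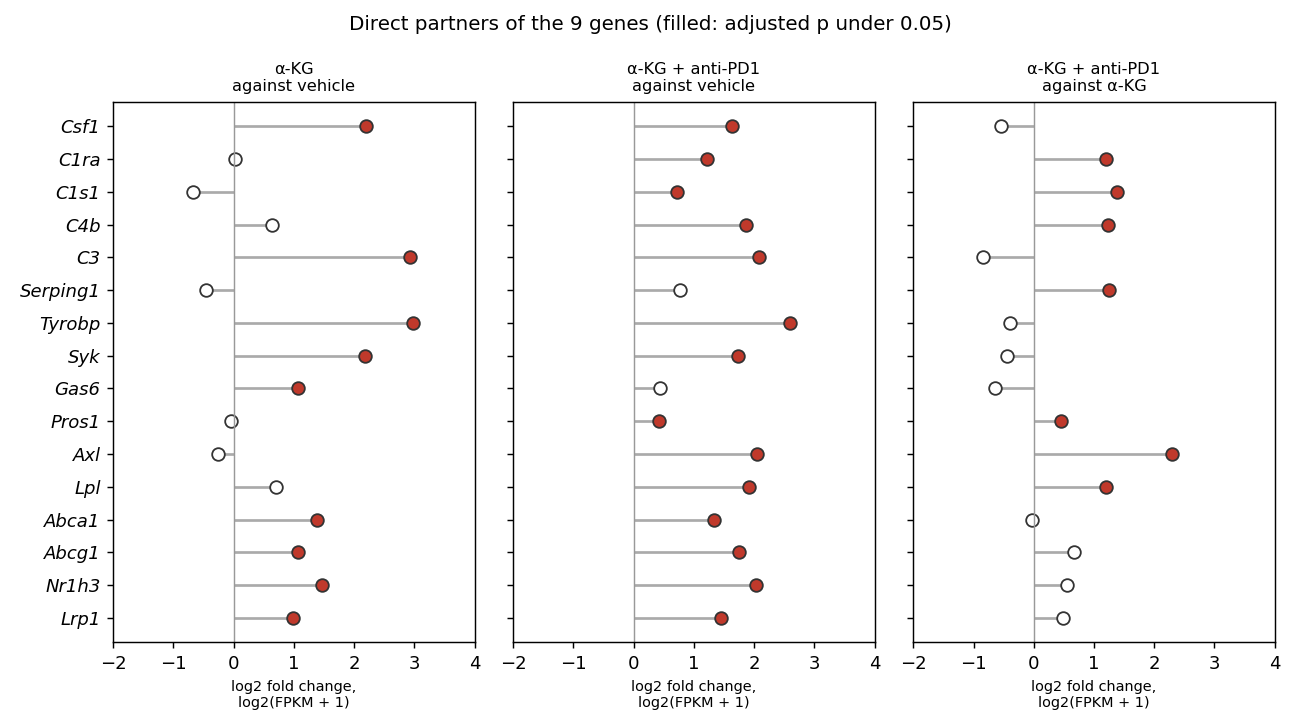
Log2 fold changes on the log2(FPKM + 1) scale of 16 direct partners of the 9 genes in 3 comparisons (limma, 4 tumors per group, filled points at adjusted p under 0.05). In the comparison of the combination with α-KG, C1ra, C1s1, C4b, Serping1, Pros1, Axl and Lpl are filled to the right of 0, and Csf1, C3, Tyrobp, Syk, Gas6 and Abca1 are open to its left.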

How the data were processed

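Bulk RNA of 16 B16F10 tumors (4 per group) was enriched for poly(A), built into strand-marked libraries and sequenced on DNBSEQ. The authors deposited FPKM values for 18929 genes. The submitters' processing notes name HISAT, Bowtie2 and mm10, and the program that computed FPKM and the annotation are not given in the sources used here. The values did not fall on whole-read steps (24.5% of 2807 ratios within 0.15 of a whole number, 30% by chance), so depth is unknown and no counting intervals are given. Groups came from the treatment labels, and every tumor was used.

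Here, log2(FPKM + 1) was fitted for the 12850 genes that reached 0.5 FPKM in no fewer than 4 tumors, with limma 3.58.1 (R 4.3.3, trend, 4 group means, 12 residual degrees of freedom), with Benjamini-Hochberg adjustment and a threshold of 0.05. Fold changes on this scale understate those of low genes such as Mertk. P-values of this fit measure the spread between tumors. A second fit, planned with the first, subtracted Csf1r in each tumor. Its p-values rest on a spread that was nearly the same for every member. Exact permutation tests on FPKM ratios, other reference genes and the omission of pairs of tumors were added after seeing the data. Alternatives were a pseudocount of 0.1, filters, rescalings, quantile normalization, array weights, a replicate block, fits of the compared groups alone and leaving out each tumor. The script was tested on simulated data.

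The 9 members and the lists of partner genes were chosen with earlier results of these data known. Named were the members, up to 6 genes per list with the largest called changes over vehicle plus direct partners, and the 3 genes most correlated with each of Csf1r, C1qa, Trem2, Apoe and Mertk. Promoter windows came from RefSeq (GRCm38.p6). Windows on chromosome 18, where Csf1r lies, were left out, and the 8 windows used belonged to 6 of the 9 members. Of the gene identifiers, 99.7% matched RefSeq. Comparisons against one control group share its tumors.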

Additional observations from a re-analysis of the deposited data

Results flagged for a closer look

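Of 36 groups of 4 FPKM values (9 genes in 4 groups), 2 held a tumor far from its neighbors by Dixon's criterion, where chance flags about 1 in 20. Adgre1 in α-KG tumor 1 was 19.4 FPKM, next to 11.8 in the nearest tumor of the group. Apoe in vehicle tumor 1 was 1089.3 FPKM, next to 610.75 in the nearest.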

How the results depend on the processing

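Counts of members passing the test are given in the order anti-PD1, α-KG and the combination over vehicle, the combination over anti-PD1 and over α-KG, α-KG over anti-PD1, and the interaction. They were 2, 4, 9, 0, 4, 0 and 0 as reported. They were 3, 6, 8, 0, 1, 0 and 1 after centering on tumor medians, 1, 4, 9, 1, 6, 0 and 0 after rescaling to one sum, 0, 4, 8, 0, 3, 0 and 0 with no filter, and 0, 5, 8, 0, 6, 1 and 0 when only the groups compared were fitted. Array weights, whose fit did not converge fully, gave 9, 8, 9, 5, 6, 0 and 4. Without vehicle tumors 3 and 4 they were 0, 1, 8, 1, 6, 0 and 0, and without combination tumors 1 and 3 they were 5, 6, 8, 0, 0, 0 and 2, both chosen after seeing the data. Leaving out 1 tumor at a time gave 0 to 8, 4 to 8, 8 to 9, 0 to 1, 0 to 6, 0 to 0 and 0 to 3. The combination over vehicle was thus 8 or 9 in every alternative. The cause of these changes was not tested.

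The labels number the tumors, and no pairing by number was seen in the correlations, which cannot exclude that tumors of one number were handled together. Correlations of deviations from the group means ran from -0.642 to 0.411 for tumors of the same number (24 pairs) and from -0.479 to 0.619 for others (72 pairs), and 4 of 16 tumors correlated best with their own number. With the number as a replicate block the counts were 0, 4, 9, 0, 4, 0 and 0.

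Relative to Csf1r (8 members), the counts were 2, 4, 2, 0, 0, 0 and 0 as reported. They were 1, 6, 2, 0, 0, 0 and 1 with a pseudocount of 0.1, 2, 4, 2, 0, 0, 0 and 1 after quantile normalization, 2, 2, 2, 0, 0, 7 and 0 when only the groups compared were fitted, 2, 8, 4, 3, 2, 8 and 5 with array weights, 0, 5, 1, 0, 1, 0 and 0 without vehicle tumors 3 and 4, and 2, 6, 2, 0, 0, 0 and 2 without combination tumors 1 and 3. Leaving out 1 tumor gave 1 to 2, 2 to 5, 2 to 2, 0 to 0, 0 to 0, 0 to 0 and 0 to 2. With another reference gene, chosen after seeing the data, they were 2, 2, 2, 0, 0, 0 and 0 for Adgre1, 2, 2, 2, 0, 1, 0 and 3 for Cd68, and 1, 8, 4, 4, 0, 8 and 0 for Ptprc. Exact permutation tests on FPKM ratios, added after seeing the data and without the interaction, gave 2, 7, 3, 2, 3 and 7 for Csf1r, 2, 4, 2, 2, 2 and 4 for Adgre1, 1, 2, 5, 4, 4 and 3 for Cd68, and 1, 8, 8, 3, 3 and 8 for Ptprc.

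Log2 fold changes turned sign only where neither fit passed the test. Apoe with α-KG over vehicle was -0.10 after quantile normalization, -0.0293 after centering, -0.00176 after rescaling, -0.0502 after rescaling without hemoglobin genes and -0.25 without vehicle tumors 3 and 4, with a leave-one-out range of -0.086 to 0.23. After centering, Apoe was -0.0101 for the combination over anti-PD1 and Cd68 was -0.16 for the combination over α-KG (leave-one-out range -0.10 to 0.33). Without combination tumors 1 and 3, Cd68 was -0.17 and Trem2 -0.0202 over anti-PD1, and Csf1r was -0.33, Adgre1 -0.0324 and Cd68 -0.41 over α-KG. Mertk with α-KG over anti-PD1 ranged from -0.24 to 0.0181 when 1 tumor was left out. The interaction without vehicle tumors 3 and 4 was 0.69 for C1qa, 0.38 for C1qb, 0.63 for C1qc and 0.12 for Mertk, and that of Mertk was 0.13 after rescaling and 0.0097 after rescaling without hemoglobin genes. Leave-one-out ranges of the interaction were -0.77 to 0.076 for C1qa, -0.76 to 0.0472 for C1qc, -0.00964 to 0.32 for Apoe and -0.20 to 0.0554 for Mertk.

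With 4 tumors per group, deposited FPKM and no read counts, counting error at low levels such as that of Mertk could not be separated from the spread between tumors.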
